A study of Arabidopsis thaliana with 2 samples.

Results

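Genes for 5 regulators of transcription had events in the tables of altered splicing of lefko mutant embryos of Arabidopsis thaliana. They were chosen by locus: STK (AT4G09960), MYB60 (AT1G08810), AT4G28790, HSL1 (AT4G32010) and TAF2 (AT1G73960). These 5 of the 227 listed genes accounted for 7 of the 270 listed events. Both groups were embryos of ecotype Col-0, taken from siliques at globular to heart stages. The lefko mutant gave 1 sample and the wild type gave 1 sample, so no difference below has a replicate check. The label of the mutant sample reads lefko1, but lefko2 stands in the title of the series, in the protocol and above the table columns. No label names the mutated gene or says whether the embryos of a sample came from separate plants.

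An event compares reads that include an alternative segment with reads that skip it, read here from the headings IC and SC. The inclusion share is the percentage of inclusion reads among both kinds, not corrected for segment length, so it is comparable between genotypes for 1 event and not between events. Each count cell joins 3 whole numbers that no label explains. They are given below one by one and summed for the share, and they were not treated as replicates. Intervals are exact Clopper-Pearson intervals at 95%, and they cover counting error only, since reads without molecular identifiers are not independent molecules.

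STK (SEEDSTICK) is a MADS-box transcription factor that gives ovules their identity and acts in the seed coat and funiculus, where it is needed for seed shedding. MYB60 is an R2R3-type MYB factor known for its role in guard cells during stomatal opening. AT4G28790 encodes a basic helix-loop-helix (bHLH) DNA-binding protein. HSL1, also called VAL2, is a relative of the B3-domain repressor HSI2, and these proteins silence seed maturation genes when seedlings establish. TAF2 is a subunit of TFIID, the general factor that binds core promoters. In plants, a retained intron or a shifted splice site often brings an early stop codon or changes the leader before the start codon.

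The sites that were chosen between are shown first, since the events turn on them. STK used several 5′ splice sites with 1 shared 3′ splice site. Each line below runs from 9 exon bases to 11 intron bases on the minus strand of chromosome 4 in the TAIR10.1 RefSeq assembly, with the first 2 intron bases in capitals.
STK shorter exon (chr4:6240592-6240611): tccaagcttGTaataattct
STK 185-base segment (chr4:6240407-6240426): aagaattagGTtatcttttt
STK 571-base segment (chr4:6240021-6240040): aatgaatttGTaagacatat
STK 744-base segment (chr4:6239848-6239867): aaaaaccatGTaatatattg
STK annotated only (chr4:6240728-6240747): aattctcagGTctgtctgtc
All of them began with GT. They scored 4.66, 5.61, 4.73, 6.49 and 7.04 bits, in the order of the lines, against a matrix of all 136308 annotated nuclear introns, whose median was 6.99 bits. The last site is annotated in RefSeq, while none of the listed STK events uses it. Only the site of the shorter exon is absent from the RefSeq models.

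The 2 sites of TAF2 are given in the same way, from the minus strand of chromosome 1.
TAF2 shorter exon (chr1:27808537-27808556): gtgcttgagGTaggaaatga
TAF2 longer exon (chr1:27808248-27808267): gcagtgaggGTgtgatttct
The first is the annotated site and scored 6.63 bits. The second is not in the RefSeq models and scored 4.50 bits, below which 14.9% of annotated introns lay.

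The retained introns of MYB60 and AT4G28790 are annotated introns. Their ends are shown next, for the 5′ end as above and for the 3′ end with 14 intron bases and 6 exon bases, the last 2 intron bases in capitals.
MYB60 5′ end (chr1:2819959-2819978): gggtaacaaGTaatctcaga
MYB60 3′ end (chr1:2819853-2819872): atggttgtggtaAGatgggc
AT4G28790 5′ end (chr4:14219398-14219417): tccgaaaggGTtcttatgct
AT4G28790 3′ end (chr4:14219489-14219508): tttttgttaaacAGagacgg
The MYB60 3′ site scored 2.68 bits against a median of 7.90, and 5.96% of annotated introns scored lower. The AT4G28790 3′ site scored 10.6 bits, with 83.6% of annotated introns below it, while its 5′ site scored 3.87 bits, with 10.5% below it. The introns were near the annotated median of 102 bases in length, at 111 bases for MYB60 and 96 bases for AT4G28790. GC content was 31.5% in the MYB60 intron and 29.2% in the AT4G28790 intron, against a median of 32.8%.

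The cassette exon of HSL1 had these 2 sites, on the plus strand of chromosome 4.
HSL1 cassette 3′ site (chr4:15480408-15480427): gaaattgtgcctAGgtagtg
HSL1 cassette 5′ site (chr4:15480495-15480514): ctatttaagGTttgcactta
Neither is annotated in RefSeq. The 3′ site scored 3.20 bits, with 7.56% of annotated introns below it, and the 5′ site 7.28 bits, with 54.3% below it.

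**Figure D1:**
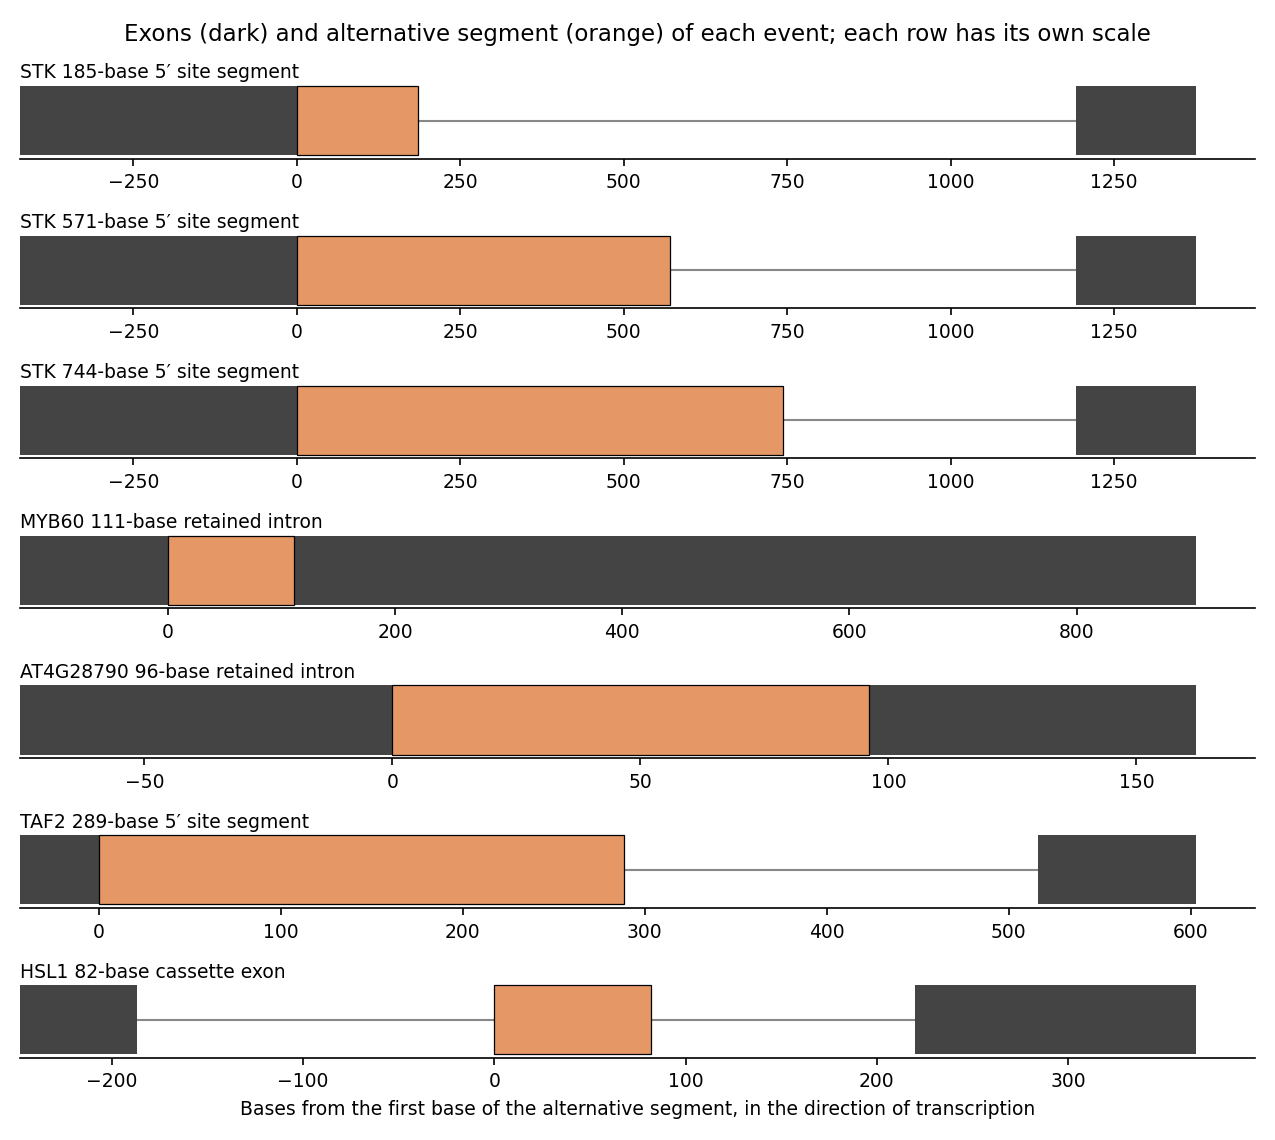
Exons (dark) and alternative segment (orange) of the 7 events, in bases from the first base of the segment in the direction of transcription, each row on its own scale. The 3 STK segments of 185, 571 and 744 bases start at the same base and lie inside each other.

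Of the 7 events, 3 had a higher inclusion share in the mutant, all of STK, and 4 had a lower one, those of MYB60, AT4G28790, TAF2 and HSL1. Over all listed events 60% were higher and 40% lower. On the summed reads, all 7 had a Fisher's exact p under 0.05, where 84.4% of all listed events did, so this count does not set them apart. That test compares the 2 samples and not the genotypes. All p-values adjusted below are Benjamini-Hochberg values over the 270 listed events, which had been selected for a difference. The 3 mutant values all lay above or below the 3 wild-type values in 5 of the 7 events, where 71.5% of all listed events did so.

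**Figure D2:**
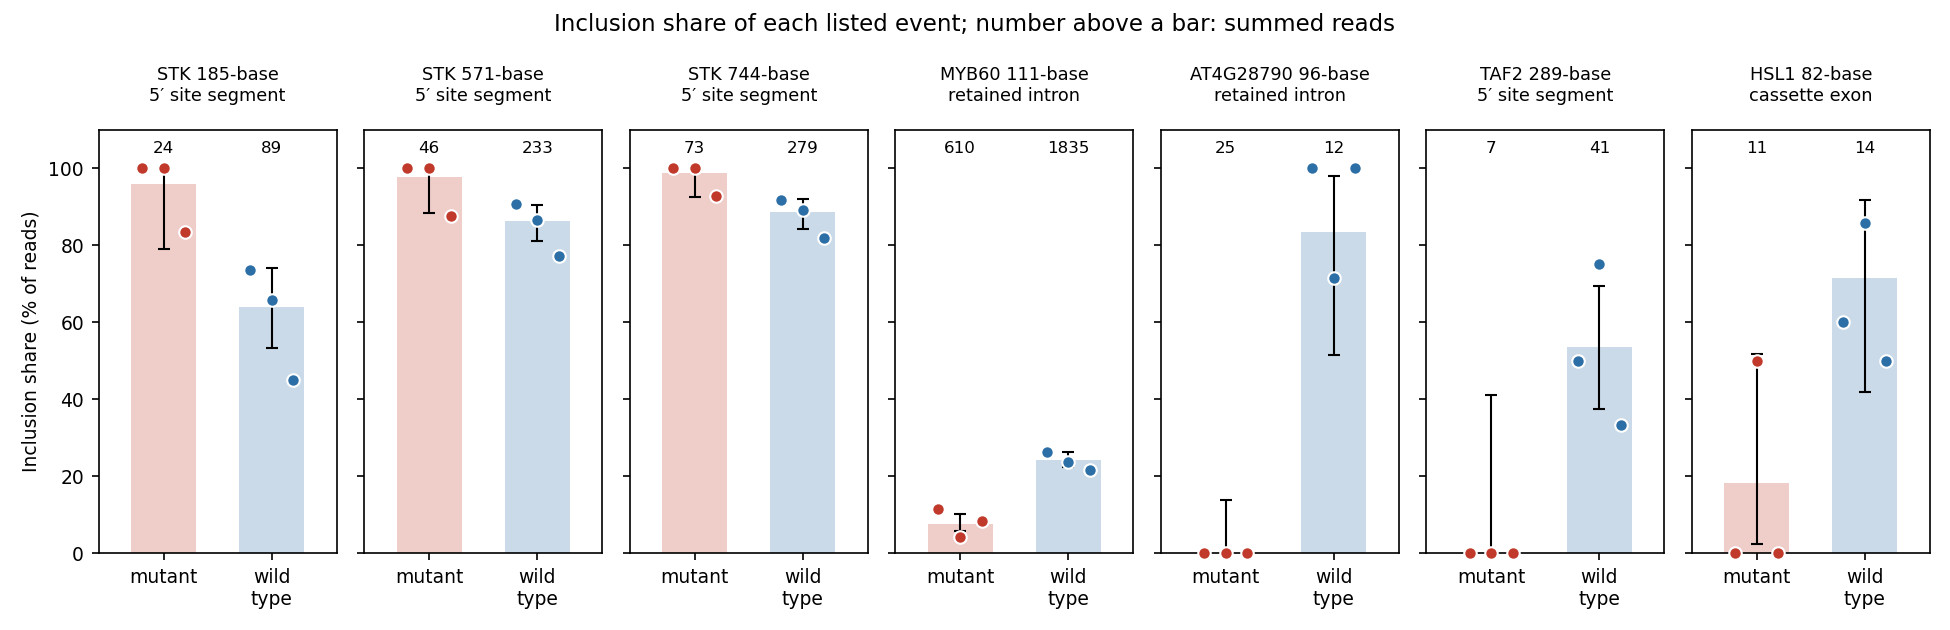
Inclusion share in percent of reads for the 7 events, with the lefko mutant left of the wild type in each panel. Bars are shares of summed reads with exact 95% intervals, points are the 3 values of a cell, and the number above each bar is the summed reads (7 to 1835).

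In STK, reads that join the shorter exon to the shared downstream exon were almost missing in the mutant. The shorter exon was supported by 1 skipping read in the mutant (0, 0 and 1 over the 3 values), against 32 in the wild type (9, 12 and 11). All 3 STK events were set against these same skipping reads, so they are not separate evidence. The ratio of skipping reads, mutant over wild type, was 0.0312 (95% counting interval 0.000768 to 0.187). The median of that ratio over the 260 listed events with wild-type skipping reads was 0.175, which lies within the STK interval.

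For the 185-base segment (chromosome 4, 6240418 to 6240602) the inclusion share was 95.8% of 24 mutant reads (78.9 to 99.9) and 64.0% of 89 wild-type reads (53.2 to 73.9). The values were 100%, 100% and 83.3% in the mutant, against 73.5%, 65.7% and 45.0% in the wild type, with no overlap. The log2 odds ratio was 3.15 (Fisher's exact test, p = 0.00186, adjusted p = 0.00325). Its FDR in the authors' deposited table was 0.000174.

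For the 744-base segment (6239859 to 6240602) the share was 98.6% of 73 mutant reads (92.6 to 100.0) and 88.5% of 279 wild-type reads (84.2 to 92.0). The mutant values of 100%, 100% and 92.9% lay just above the wild-type values of 91.7%, 89.1% and 82.0%. The log2 odds ratio was 2.67 (Fisher's exact test, p = 0.00575, adjusted p = 0.00877). For the 571-base segment (6240032 to 6240602) the share was 97.8% of 46 mutant reads and 86.3% of 233 wild-type reads. Here the genotypes overlapped, since the lowest mutant value was 87.5% and the highest wild-type value 90.6%. Its log2 odds ratio was 2.29 (Fisher's exact test, p = 0.0237, adjusted p = 0.0302).

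Inclusion reads were more numerous on the longer STK segments. In the mutant, 23, 45 and 72 inclusion reads on 185, 571 and 744 bases came to 12.4, 7.88 and 9.68 reads per 100 bases. In the wild type, 57, 201 and 247 reads came to 30.8, 35.2 and 33.2 reads per 100 bases. The segments are nested, so these densities are not separate measurements, and how many inclusion reads the events share was not analysed here. These counts do not tell which of the 3 longer sites was used, nor separate them from retention of the whole intron. The first exon of the RefSeq model of 696 coding bases begins within the 744-base segment, so reads of that model may fall on it too.

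The STK call depended on single values. Without the mutant value that holds most reads of the 185-base event, the second, its log2 odds ratio was 1.68 (Fisher's exact p = 0.265), that of the 744-base event 1.79 (p = 0.0973) and that of the 571-base event 1.07 (p = 0.486). Without the first mutant value the 744-base event had 2.03 (Fisher's exact p = 0.0635) and the 571-base event 1.85 (p = 0.0934). Without the third wild-type value the 571-base event had 1.99 (Fisher's exact p = 0.0875).

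STK has 6 transcript models in RefSeq (chromosome 4, 6236375 to 6241281, minus strand), and they differ at this end of the gene. In 2 of them coding starts in the shared downstream exon, with the start codon at 6239409, and coding lengths of 693 and 651 bases. The models that end the first exon at the sites of the 185-base, 571-base and 744-base segments are annotated with coding lengths of 771, 723 and 696 bases, each starting in the first exon. In the last of these the exon ends in AT, and the start codon is completed across the junction. The first exons of these 3 models begin downstream of the first base of the listed exon, 6241025, so they match the listed exons at the 5′ splice site only. In the remaining model, of 990 coding bases, the start codon at 6241022 lies within the listed exon, and the segments fall in an intron after it. None of the 6 models has the shorter exon of the events.

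MYB60 lost most of the retention of its second intron in the mutant. The intron (chromosome 1, 2819859 to 2819969, minus strand) was retained in 7.70% of 610 mutant reads (5.72 to 10.1) and 24.3% of 1835 wild-type reads (22.3 to 26.3). Taken one by one, the values were 11.4%, 4.13% and 8.33% in the mutant, against 26.2%, 23.8% and 21.6% in the wild type. The groups did not overlap, and the highest mutant value had an interval of 7.08 to 17.0 while the lowest wild-type value had one of 17.8 to 25.8. This was the best-covered of the 7 events, and only 7 of the 270 listed events had more wild-type reads. The log2 odds ratio was -1.93 (Fisher's exact test, p = 2.65e-21, adjusted p = 2.24e-20), and it stayed between -2.25 and -1.56 when any of the 6 values was left out. The authors' deposited table gives it an FDR of 0.00345.

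Both forms of MYB60 had fewer reads in the mutant, and the retained form more so. Inclusion reads were 20, 9 and 18 in the mutant, against 191, 161 and 93 in the wild type, a ratio of 0.106 (0.0765 to 0.143). Skipping reads were 156, 209 and 198 in the mutant, against 537, 516 and 337 in the wild type, a ratio of 0.405 (0.367 to 0.447). The median inclusion ratio over listed events was 0.475.

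Retention changes the MYB60 reading frame at once. In the model with all 3 exons spliced the coding sequence has 843 bases, or 280 codons. With the intron kept, a TAA stop begins at base 2 of the intron, after 88 codons. The stretch around it on the minus strand is shown with the stop codon in capitals.
MYB60 stop (chr1:2819960-2819980): ttgggtaacaagTAAtctcag
RefSeq has 2 models that keep this intron, and it annotates their coding sequence from a later start at 2819872, with 594 bases. The R2R3 DNA-binding domain lies at the amino end of MYB proteins of this class. The RefSeq note on MYB60 places its transcript in guard cells, whereas these samples are globular to heart stage embryos.

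AT4G28790 had only spliced reads in the mutant and mostly inclusion reads in the wild type, on few reads. Its 96-base intron (chromosome 4, 14219407 to 14219502, plus strand) was retained in 0 of 25 mutant reads, which allows a share of up to 12%. In the wild type it was retained in 10 of 12 reads, or 83.3% (51.6 to 97.9). The mutant values were 0 of 4, 0 of 5 and 0 of 16 reads, against 1 of 1, 5 of 7 and 4 of 4 reads in wild type, with no overlap. Fisher's exact test gave p = 1.89e-07 (adjusted p = 5.5e-07), and the highest p without any 1 of the 6 values was 0.000221. The authors' deposited table gives an FDR of 2.17e-05. The log2 odds ratio of -7.74 rests on a pseudocount, since 1 cell is 0.

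Spliced reads of AT4G28790 numbered 25 in the mutant and 2 in the wild type, a ratio of 12.5 with a counting interval of 3.12 to 109. Its event reads as a whole had a ratio of 2.08 (1.01 to 4.55), and 1 joined value held 16 of the 25 mutant reads. Without that value, the third, the ratio of mean reads per value was 1.12 (0.419 to 2.91), an interval that takes in equal numbers. It did so too without the first wild-type value (1.52, 0.719 to 3.41) or the third (2.08, 0.911 to 5.34), and the ratio was 3.33 (1.25 to 11.1) without the second.

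The AT4G28790 intron lies between coding exons in 2 of its 8 RefSeq models, of 413 and 340 codons. Kept in either, it brings a TAA stop at its base 43, after 301 codons.
AT4G28790 stop (chr4:14219437-14219457): tctgagtttgaaTAAtggact
The 3 models that keep the intron are annotated with 906 coding bases, ending at this stop. Another 3 models use an earlier 5′ splice site in the same exon, which neither form of the event measures.

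HSL1 had lower inclusion of an 82-base exon in its leader (chromosome 4, 15480422 to 15480503, plus strand). The share was 18.2% of 11 mutant reads (2.28 to 51.8) and 71.4% of 14 wild-type reads (41.9 to 91.6). Inclusion was seen in 0 of 6, 2 of 4 and 0 of 1 reads in the mutant, against 3 of 5, 6 of 7 and 1 of 2 reads in the wild type. The genotypes met at 50%, so the 3 values did not separate them, and the 2 intervals overlap. Fisher's exact test gave p = 0.0154 (adjusted p = 0.0208) with a log2 odds ratio of -3.15. Without the first mutant value the log2 odds ratio was -1.71 (Fisher's exact p = 0.305), and without the second wild-type value it was -2.29 (p = 0.141). The authors' deposited table gives an FDR of 0.0229.

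Skipping reads of HSL1 were 9 in the mutant and 4 in the wild type, and inclusion reads were 2 in the mutant and 10 in the wild type. The exon lies before the annotated start of coding at 15481231, and the coding sequence of 2343 bases is the same with or without it. The exon is in neither of the 2 RefSeq models. In 1 of them the segment lies neither wholly in an exon nor within an intron. Whether reads of that model fall on the segment was not analysed here.

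TAF2 had no inclusion reads for the longer of 2 alternative exons in the mutant, where the event had only 7 reads. The longer form adds 289 bases (chromosome 1, 27808259 to 27808547, minus strand) to an exon in the coding region. Inclusion was seen in 0 of 7 mutant reads, which allows a share of up to 42.9%, and in 53.7% of 41 wild-type reads (37.4 to 69.3). That mutant limit lies within the wild-type interval. The mutant values were 0 of 5, 0 of 1 and 0 of 1 reads, against 5 of 10, 12 of 16 and 5 of 15 in the wild type. All mutant values lay below all wild-type values, but 2 of them are single reads.

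Fisher's exact test on TAF2 gave p = 0.0113 (adjusted p = 0.0158). Fisher's exact p was 0.233 without the first mutant value and 0.0694 without the second wild-type value, and the log2 odds ratios were then -2.53 and -3.35. The log2 odds ratio over all reads was -4.11, which again depends on the pseudocount. The authors' deposited table gives an FDR of 0.0415. Skipping reads were 7 in the mutant and 19 in the wild type.

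The added TAF2 segment holds a stop in frame in all 3 RefSeq models. A TAG begins at base 46 of the segment, after 780 codons in the model of 1390 codons.
TAF2 stop (chr1:27808494-27808514): gatctcagatgtTAGctggag
The models all use the shorter exon. The longer form therefore has no annotated counterpart, and retention of the whole 516-base intron would also put reads on the segment.

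The 3 events in coding sequence had a feature in common, though the genes were chosen with earlier results of these data known. For MYB60, AT4G28790 and TAF2 the longer form carries an early stop, and its share was lower in the mutant. Of the 115 listed intron retention events 41 bring a stop codon into a RefSeq model in this way, and of the 70 alternative 5′ events 6 do. An event could be read in this way only where a coding RefSeq model has the splice site of its shorter form. Events without such a model, those of STK among them, still count in the 115 and 70, so these are not rates of early stops. Together the 41 and the 6 are 47 events, and 27 of them (57.4%) were lower in the mutant. The HSL1 exon lies before the annotated start of coding. The STK segments lie before the start, across it or after it, depending on the RefSeq model.

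**Figure D3:**
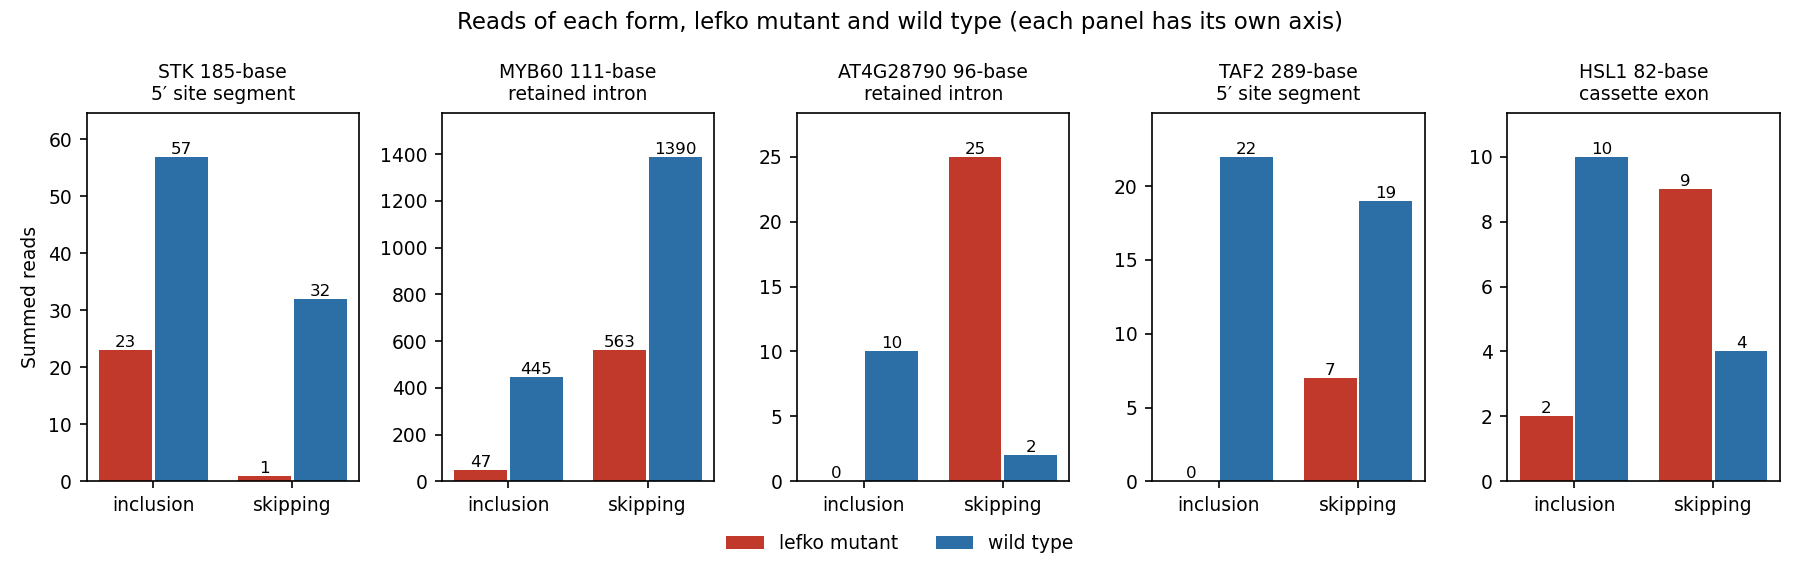
Summed reads that include or skip the alternative segment, lefko mutant (red) left of wild type (blue), for 1 event per gene, each panel with its own axis from 0. The STK panel shows the 185-base event. AT4G28790 had 25 skipping reads in the mutant and 2 in the wild type, while STK, MYB60 and TAF2 had fewer of both kinds in the mutant.

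Event reads of a gene are taken here from its event with the most reads, inclusion and skipping together. They were fewer in the mutant for most of these genes, as for most listed genes. Summed over all listed events, reads were not fewer in the mutant. The 3 values were then 35457, 40002 and 61034 in the mutant, against 32469, 31076 and 18096 in the wild type. The ratio of mutant to wild-type reads was 0.171 for TAF2 (0.0646 to 0.384), 0.262 for STK (0.199 to 0.340) and 0.332 for MYB60 (0.303 to 0.365). It was 0.786 for HSL1 (0.323 to 1.86) and 2.08 for AT4G28790. The STK ratio is that of the 744-base event, while the 185-base event had 0.270 and the 571-base event 0.197. The median over all 227 genes was 0.471. The intervals of STK and MYB60 lay wholly below that median, also as ratios of mean reads per value when any 1 of the 6 values was left out. The interval of TAF2 lay below it as well, but took it in without the second or the third mutant value (0.220, with an interval of 0.0762 to 0.520 each), and its ratio was 0.0732 without the first. The interval of AT4G28790 lay above the median with all values and took it in without the third mutant value (0.419 to 2.91). Event reads are not gene expression, and library totals were not analysed here. In bulk samples fewer cells of a type and less RNA per cell cannot be told apart. STK is known from maternal tissue of the ovule. The tables hold no expression values, so the embryo identity of the samples was not checked against markers.

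Depth differed widely among the 5 genes. With at least 20 reads in each genotype, only the STK events and MYB60 remained, 4 of 7, where 72.6% of all listed events did. The changes in inclusion share were 31.8, 11.6 and 10.1 points for STK and -16.5 points for MYB60. On fewer reads they were -53.2 for HSL1, -53.7 for TAF2 and -83.3 for AT4G28790. The median absolute change over all listed events was 26.4 points.

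**Figure D4:**
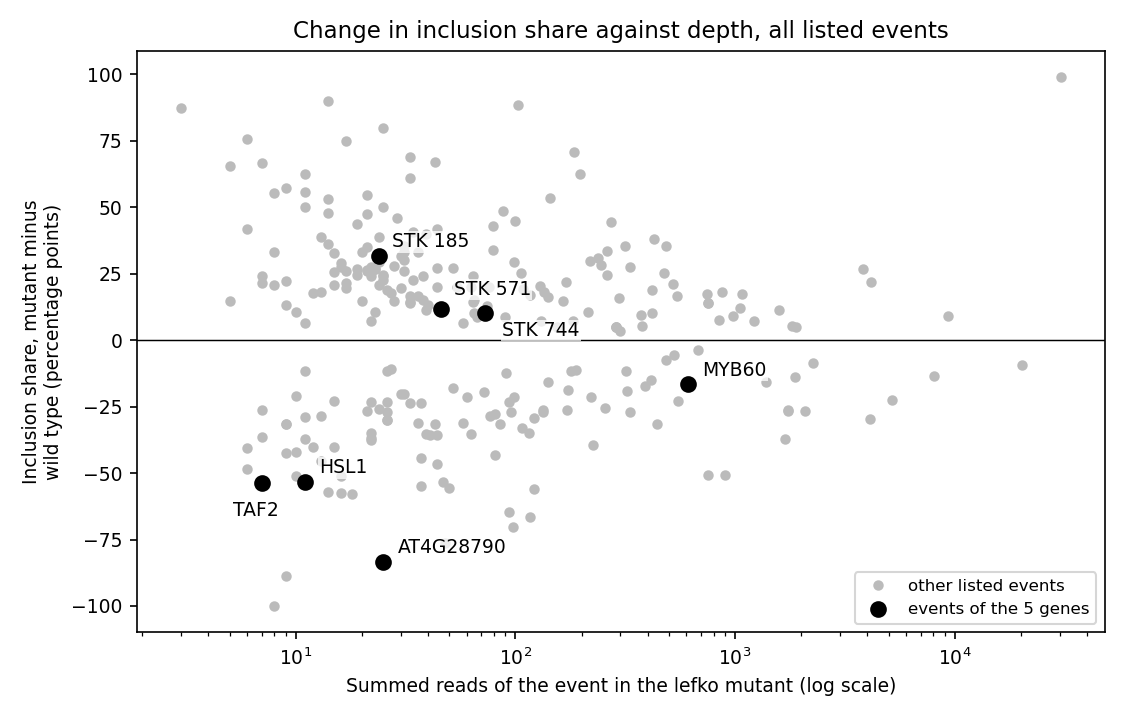
Change in inclusion share, mutant minus wild type in percentage points, against the summed reads of the event in the mutant on a log scale, for all 270 listed events. The events of the 5 genes are black: AT4G28790 lies at -83.3 points on 25 reads and MYB60 at -16.5 points on 610.

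Among 53 relatives of the 5 genes, 1 (1.89%) had a listed event, where 225 of the 24197 nuclear genes with an annotated intron (0.930%) did. By list, an event was found for 0 of 9 MADS-box genes of ovule and flower identity, 0 of 4 MYB60 relatives, 0 of 6 seed regulators (the B3-domain genes with LEC1), 0 of 21 TFIID subunits and 1 of 13 bHLH genes. The tables list only events that passed the authors' threshold, so the absence of a gene says nothing about its splicing. The listed gene was PIF5 (AT3G59060, RefSeq symbol PIL6), a phytochrome-interacting bHLH factor of light signalling. It had an alternative 3′ splice site 6 bases away (chromosome 3, 21828303 to 21828308), and the longer exon made up all 34 mutant reads (89.7 to 100) and 77.3% of 150 wild-type reads (69.8 to 83.8). The 3 mutant values were 7 of 7, 9 of 9 and 18 of 18 reads, against 86.0%, 64.9% and 83.3% in the wild type, with no overlap. Fisher's exact test gave p = 0.000908 (adjusted p = 0.00173).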

How the data were processed

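RNA of 1 lefko mutant and 1 wild-type sample was sequenced from low-input TruSeq libraries, per the labels' protocols. The submitters' processing notes name HISAT2 2.0.4 and TAIR10. Which program called the events is not given in the sources used here. Deposited by the authors were 4 tables of events whose largest FDR is 0.0500, with 3 joined read counts per cell, a p-value and an FDR. The p-values and FDRs are those the authors deposited. The plan foresaw no length correction unless the tables gave lengths, and they gave none.

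Starts were raised by 1: 13 of the 21 listed exons of the 5 genes then equalled an annotated exon of TAIR10.1, against 0 as listed. Shares, odds ratios (pseudocount 0.5 reads) and two-sided Fisher's exact tests on summed reads were computed with SciPy 1.17.1 in Python 3.11.15 and tested on simulated data. The share limit at 0 reads is 3 reads of the total. Splice site scores came from base frequencies of annotated nuclear introns against equal base use. Stop codons were read from RefSeq models with the segment added. Each of the 5 genes and each listed relative with an event was named. The genes and lists were chosen with earlier results of these data known. Median depth per event was 43.5 mutant and 91 wild-type reads. Alternatives were other ways to combine the values, other pseudocounts, an FDR of 0.01, at least 20 reads, 1 event per set of shared skipping reads, and leaving out each value, for read ratios as means per value left, a choice made after seeing the data.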

Additional observations from a re-analysis of the deposited data

How the results depend on the processing

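No log2 odds ratio reversed under any alternative run. No paired analysis was possible because each genotype has 1 sample and the 3 joined values carry no labels. A length-corrected share was not run. The median of the 3 values in place of summed reads gave 100% in the mutant for all 3 STK events, 100% in the wild type for AT4G28790 and 0% in the mutant for HSL1. Counting 1 event per set of shared skipping reads left 1 higher event. With an FDR up to 0.01, 2 lower events were left, and with at least 20 reads in each genotype 1. Leaving out 1 value at a time moved the mutant shares to 88.9% to 100% for the 185-base, 95% to 100% for the 571-base and 97.5% to 100% for the 744-base STK segment, the wild-type AT4G28790 share to 75% to 100% and the mutant HSL1 share to 0% to 40%. The log2 odds ratios then ran from 1.68 to 4.39, 1.07 to 3.63 and 1.79 to 3.97 for the same STK segments in that order, from -4.79 to -2.53 for TAF2 and from -5.13 to -1.71 for HSL1. In these 5 events at least 1 omission took Fisher's exact p over 0.05. Omission leaves fewer reads. MYB60 and AT4G28790 kept p under 0.05 in all 6 omissions each. In an alternative chosen after seeing the data, the ratio of mean event reads per value, mutant over wild type, ran from 0.289 to 0.367 for MYB60, 0.215 to 0.317 for STK, 0.0732 to 0.220 for TAF2, 0.536 to 1.07 for HSL1 and 1.12 to 3.33 for AT4G28790.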

Other observations

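Sets of events that share skipping reads were common in the tables. There were 25 such sets with 58 events over the whole series, and the 3 STK events are 1 of them.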
